A study of Homo sapiens with 6 samples.

Results

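The cytosolic ribosomal protein genes were followed in H1155 cells, a human neuroendocrine large cell lung cancer line. They are the protein-coding genes named RPL or RPS with a number, together with RPLP0, RPLP1, RPLP2 and RPSA, and the ribosomal S6 kinases were left out. The rule took 91 of the 58735 genes in the table. Of these, 46 encode proteins of the large subunit, 31 encode proteins of the small subunit and 8 are paralogs of such genes (RPL3L, RPL7L1, RPL10L, RPL22L1, RPL26L1, RPL36AL, RPL39L and RPS27L). Another 3 are readthrough genes that join a ribosomal protein gene to its neighbour, 2 are Y-linked, and RPS19BP1 shares only the name, since it encodes a protein that binds RPS19. RNA-Seq counts came from 3 libraries of wild-type (WT) cells and 3 libraries of cells labelled GFI1-KO, in which CRISPR/Cas9 with a pair of guides was aimed at the promoter region of GFI1 before single GFP-positive cells were sorted and grown as clones. Both were untreated and cultured in DMEM with 10% FBS. No source used here says how many clones the GFI1-KO libraries represent or whether libraries of a group came from separate cultures, so p values measure only the spread between these libraries, and the deletion cannot be told apart from a difference between clones.

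A ribosome has a small subunit, which decodes the mRNA, and a large subunit, which forms the peptide bond, and each is built from ribosomal RNA and a set of proteins that are mostly present in a single copy. The mRNAs of nearly all these proteins start with a run of pyrimidines, the 5′ terminal oligopyrimidine (TOP) motif, through which their translation responds to mTOR and LARP1. Several genes have a close paralog that can take the place of the canonical protein, and the genome holds many processed pseudogenes of the family.

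Library totals lay between 14882914 and 17692882 counts. GFI1, the targeted gene, had raw counts of 153, 106 and 125 in the WT libraries and 174, 188 and 170 in the libraries labelled GFI1-KO, and after normalization it was higher in the latter (log2 fold change 0.31, SE 0.12, adjusted p = 0.0273; edgeR quasi-likelihood F test with Benjamini-Hochberg adjustment, used throughout). With offsets for GC content and length of the coding sequence the value was -0.22. The paper reports the deletion with an immunoblot of GFI1 protein, which RNA counts do not measure. No drop in GFI1 counts marks the knockout libraries. They are therefore called GFI1-KO below by their label, and each direction rests on the labels. The 8 neuroendocrine markers split into 5 that rose and 3 that fell, with log2 fold changes from -10.5 to 1.21. Beside the marker counts given here, 36.5% of all genes tested were higher and 35.9% lower. Of 4 epithelial markers 1 rose and 2 fell, the 3 fibroblast markers that passed the filter fell, and leukocyte markers summed to at most 0.509 CPM (counts scaled to a common library total) in any library. The part of these shifts in the results was not tested.

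The window around the annotated start site shows the feature most of these genes share. In the RefSeq promoter entries (GRCh38.p14), which cover 68 of the 85 subunit and paralog genes, 55 genes (80.9%) had a run of at least 8 C or T letters between 10 bases before and 20 bases after the start, against 4215 of all 27305 gene symbols (15.4%). The windows of 5 genes that rose and of 3 pairs of canonical gene and paralog are shown 5′ to 3′, with the longest C or T run in capitals. Where a gene had several starts, the one with the longest run was taken.
RPS28 (chr19:8321486-8321515, plus strand): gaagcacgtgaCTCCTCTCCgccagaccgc
RPL36 (chr19:5690285-5690314, plus strand): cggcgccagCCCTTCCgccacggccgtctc
RPL41 (chr12:56116623-56116652, plus strand): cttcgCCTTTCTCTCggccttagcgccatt
RPL27A (chr11:8682782-8682811, plus strand): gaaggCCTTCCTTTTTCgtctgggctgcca
RPL11 (chr1:23691796-23691825, plus strand): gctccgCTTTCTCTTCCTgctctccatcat
RPL22 (chr1:6199576-6199605, minus strand): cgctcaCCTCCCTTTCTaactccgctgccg
RPL22L1 (chr3:170870176-170870205, minus strand): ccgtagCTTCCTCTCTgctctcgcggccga
RPL36A (chrX:101391001-101391030, plus strand): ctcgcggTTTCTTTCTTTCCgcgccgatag
RPL36AL (chr14:49620607-49620636, minus strand): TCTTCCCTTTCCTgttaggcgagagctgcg
RPL26 (chr17:8383174-8383203, minus strand): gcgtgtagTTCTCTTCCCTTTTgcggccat
RPL26L1 (chr5:172958719-172958748, plus strand): TCCaggggtcggcgaacgaaacgcggagct
RPL22L1, RPL36A and RPL36AL each carried a long run although their counts went in different directions, and RPL26L1 had no run longer than 3. Among the 62 subunit genes whose window was read, the 53 with a run of at least 8 had a median log2 fold change of 0.32 and the 9 without had 0.38. Exact matches on either strand within 250 bases before and 50 bases after the start were found for CCGGAAG (ETS family) in 35.3% of the 68 genes and 12.2% of all symbols, for AAGATGGCG (YY1) in 8.82% and 2.14%, for CACGTG (E-box) in 7.35% and 8.77%, for TATAAA (a core promoter element) in 7 of the 68 genes and 3819 of all symbols, and for AAATCAC (GFI1 core) in 1.47% and 3.83%. Each motif was searched for on its own, so that matches of different motifs may share bases.

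Counts of ribosomal protein genes made up a larger share of the libraries labelled GFI1-KO. All 91 genes together took 3.31%, 3.28% and 3.4% of the counts in the WT libraries and 4.13%, 4.24% and 4.12% in the GFI1-KO libraries, or 3.33% ± 0.059 (SD, n = 3) and 4.16% ± 0.064 (SD, n = 3). The groups did not overlap. Large subunit genes went from 1.95% ± 0.026 (SD, n = 3) to 2.53% ± 0.042 (SD, n = 3). For small subunit genes the shares were 1.33% ± 0.033 (SD, n = 3) and 1.57% ± 0.023 (SD, n = 3). The large subunit thus stood at 146% ± 1.9 (SD, n = 3) of the small subunit's counts in the first group and 161% ± 1.1 (SD, n = 3) in the second. The summed share of the paralogs went the other way, from 0.0495% ± 0.0017 (SD, n = 3) to 0.0446% ± 0.00035 (SD, n = 3). RPL7L1 weighed most in that sum, with mean normalized counts of 5933 in WT and 4652 in GFI1-KO. The direction of the sum is therefore that of RPL7L1 and does not stand for the other paralogs. Taken singly, the paralogs were mixed. Among the 5 tested, RPL36AL and RPL26L1 rose, RPL22L1 and RPL7L1 fell, and RPS27L passed in neither direction. The median of these 5 was 0.17 on the log2 scale. A share of counts is relative: more RNA per cell of ribosomal protein genes and less of others cannot be told apart.

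**Figure D1:**
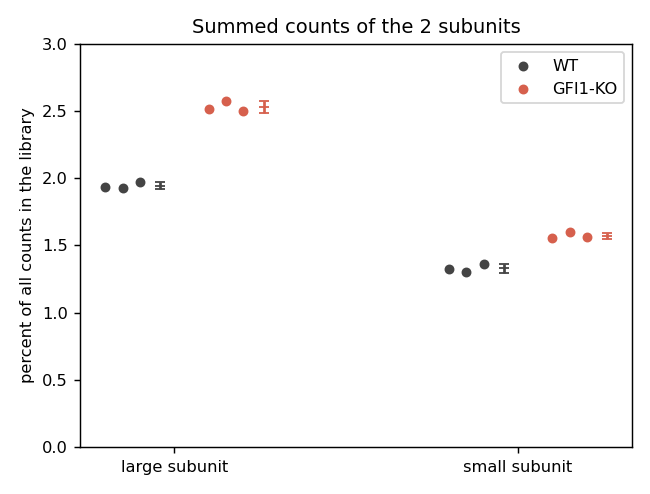
Percent of all counts in a library that fell on large subunit genes (46) and small subunit genes (31). Points are libraries, and the bar beside them is the mean with its SD (n = 3). In both subunits the 3 GFI1-KO libraries lie above the 3 WT libraries, with means of 2.53% against 1.95% for the large subunit and 1.57% against 1.33% for the small.

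Gene by gene, the family did not move as a block. Of the 91 genes, 83 passed the filter on low counts, and 58 of these were higher and 14 lower in GFI1-KO, while 11 did not pass the test. Of all 17514 genes tested, 36.5% were higher and 35.9% lower, and the median log2 fold change over them was 0.00050, against 0.35 for the 83. Among large subunit genes, 34 of 46 were higher, 8 were lower and 4 did not pass, with a median log2 fold change of 0.37. Among small subunit genes, 21 of 31 were higher, 4 lower and 6 did not pass, with a median of 0.14. WT and GFI1-KO libraries stood fully apart, with no overlap, for 54 subunit genes in the upward and 10 in the downward direction. Across the tested genes as a whole, 74.4% stood apart in this way. The 8 genes that did not pass the filter were 3 paralogs, the 3 readthrough genes, with at most 3 counts in any library, and the 2 Y-linked genes, while RPS19BP1 rose by 1.32 on the log2 scale. Log2 fold changes of the subunit genes ran from -0.69 to 2.23, with an SD of 0.55 between genes. With offsets for GC content and length of the coding sequence, an alternative chosen after the data had been seen, 45 of the 83 were higher and 22 lower, beside 37.4% and 31.7% of the 13907 genes in that fit, and the medians were 0.22 for the large and 0.14 for the small subunit.

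**Figure D2:**
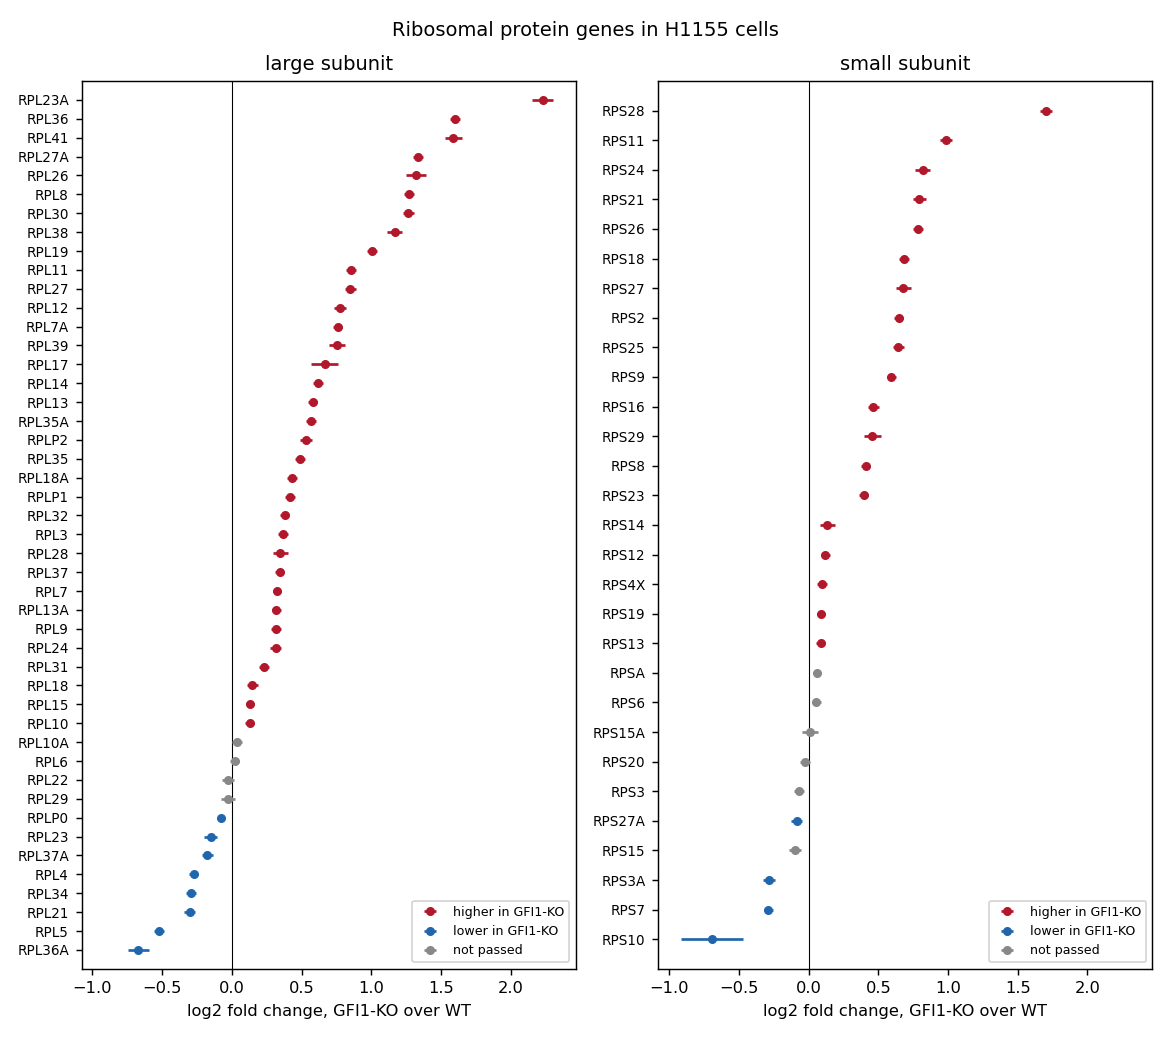
Log2 fold change (GFI1-KO over WT, x axis) of genes of the large (left) and small (right) subunit, in order of size. Bars are standard errors of the edgeR fit from 3 libraries per group, and colours give the call at an adjusted p of at most 0.05: red for higher and blue for lower in GFI1-KO, grey for not passed. Not every gene is drawn. RPL23A is at the top of the large subunit and RPS28 at the top of the small.

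The largest rise was that of RPL23A (chr17:28719393-28724359, GRCh38), whose protein sits at the exit of the peptide tunnel. RPL23A had normalized counts of 1362, 1419 and 939 in WT and 5489.6, 5971 and 5971 in GFI1-KO (log2 fold change 2.23, SE 0.076, adjusted p = 4.06e-19). The third WT library was the lowest, and every GFI1-KO library lay above every WT library. RPS28, a small subunit protein near the mRNA channel, had normalized counts of 1745, 1763 and 1984 in WT and 5938, 5737 and 6169 in GFI1-KO (log2 fold change 1.70, SE 0.043, adjusted p = 7.22e-22). RPL36 had normalized counts of 1571, 1609.5 and 1708 in WT and 4904, 5088 and 4844 in GFI1-KO (log2 fold change 1.60, SE 0.038, adjusted p = 2.67e-22). These 2 genes lie on chromosome 19 and their groups were far apart. RPL41, which encodes the shortest ribosomal protein, had normalized counts of 4539, 4687 and 3439 in WT and 12690.5, 13033 and 12383 in GFI1-KO (log2 fold change 1.59, SE 0.063, adjusted p = 9.47e-18). Next came RPL27A, with 4354, 4439 and 4095 in WT and 10559.9, 11202 and 10779 in GFI1-KO (log2 fold change 1.34, SE 0.036, adjusted p = 2.63e-21). RPL26, another protein of the tunnel exit, rose from 292, 335 and 326 to 858, 740.1 and 787 (log2 fold change 1.32, SE 0.073, adjusted p = 8.29e-15). Read in words of 50 bases, all of the coding sequence of RPS28 and RPL41 occurs elsewhere in the genome. For RPL23A, RPL27A and RPL26 the share was 88.1%, 60.8% and 57.8%, and for RPL36 it was 2.26%. Counts of these genes other than RPL36 are therefore uncertain. RPL8, RPL30, RPL38 and RPL19 rose with log2 fold changes of 1.27, 1.27, 1.17 and 1.00, and no other large subunit gene reached 1; these 4 were named after their values had been seen.

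**Figure D3:**
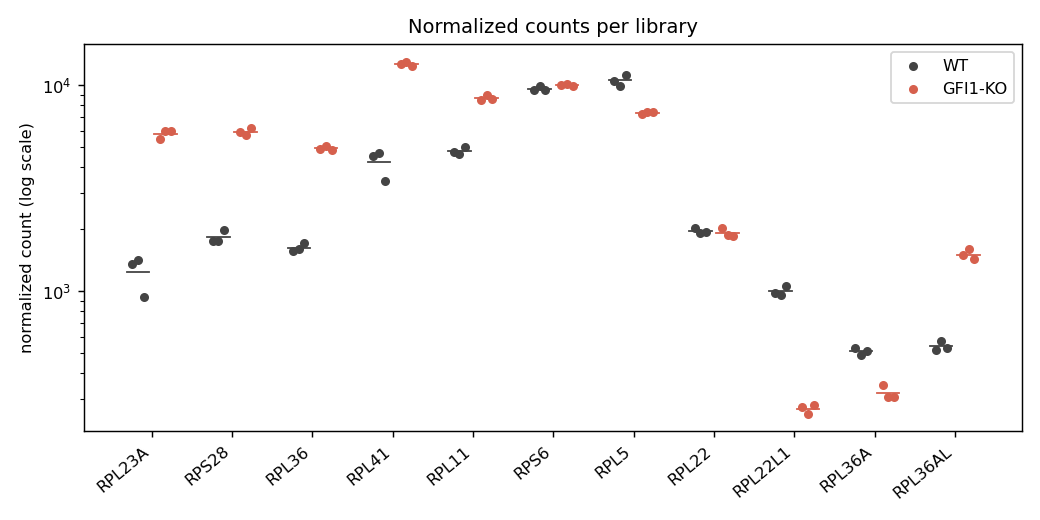
Normalized counts (log axis) of 11 genes in each of the 3 WT (dark) and 3 GFI1-KO (red) libraries, with the group mean as a line. RPL23A, RPS28, RPL36, RPL41, RPL11 and RPL36AL are higher in every GFI1-KO library, RPL5, RPL22L1 and RPL36A are lower in each, and the groups overlap for RPS6 and RPL22.

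Falls among the subunit genes were fewer and smaller. RPL36A fell from 527, 492 and 515 to 352, 305 and 308 (log2 fold change -0.67, SE 0.075, adjusted p = 1.08e-08). This gene overlaps the readthrough gene RPL36A-HNRNPH2 on the same strand. RPS10 was counted at only 61.4, 45.4 and 63 in WT and 31.4, 40.7 and 32.9 in GFI1-KO (log2 fold change -0.69, SE 0.22, adjusted p = 0.00769), and with the counts of its pseudogene rows added the value became 0.065. All of its coding sequence, read in words of 50 bases, occurs elsewhere in the genome, and it lies inside the readthrough gene RPS10-NUDT3. RPL5, came next at -0.52, and RPL21, RPL34, RPS7 and RPS3A followed at -0.30, -0.29, -0.29 and -0.28. With offsets for coding GC and length RPS3A stood at 0.039, and with offsets for GC and length of the whole mRNA RPL34 stood at 0.023.

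RPL5 and RPL11 form, with 5S ribosomal RNA, the particle that binds MDM2 when ribosome assembly is disturbed. They differed in opposite directions. RPL5 had normalized counts of 10516, 9972 and 11214 in WT and 7235, 7422 and 7431 in GFI1-KO (log2 fold change -0.52, SE 0.037, adjusted p = 1.15e-12). RPL11 had normalized counts of 4718, 4660.4 and 5005 in WT and 8444, 8966 and 8569.8 in GFI1-KO (log2 fold change 0.85, SE 0.035, adjusted p = 2.12e-17). Neither pair of groups overlapped, and with the coding offsets the values were -0.24 and 0.81. In the stalk that recruits elongation factors, the acidic proteins RPLP1 and RPLP2 rose (0.42 and 0.53 on the log2 scale), whereas their anchor RPLP0 fell by a small amount, from 19451, 19028 and 20143 to 18501, 18756 and 18248 (log2 fold change -0.08, SE 0.031, adjusted p = 0.0261). These calls depend on the processing. RPLP1 stood at 0.063 with the coding offsets (adjusted p = 0.167), RPLP2 at 0.053 with the whole-mRNA offsets (adjusted p = 0.333), and RPLP0 at -0.048 with pseudogene counts added (adjusted p = 0.175). Of the 9 genes listed for the exit tunnel, 7 rose and 1 fell, beside 36.5% and 35.9% of all genes tested. The median log2 fold change of the 9 was 0.67. Of the 18 genes listed for Diamond-Blackfan anemia, an inherited failure of red cell production, 15 were higher and 3 lower, where 36.5% and 35.9% of all genes tested were; with the coding offsets 9 were higher and 5 lower, and the median went from 0.47 to 0.19. RPS19, the gene most often mutated in that disease, had 8181, 7963 and 8411 in WT and 8712, 8605 and 8796 in GFI1-KO (log2 fold change 0.09, SE 0.032, adjusted p = 0.0154), and the sign turned with either correction for GC and length (to -0.27 with the whole mRNA and -0.38 with the coding sequence).

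Small subunit genes included several that hardly differed without offsets. RPS6, the substrate of S6 kinase, had 9495, 9933 and 9489 in WT and 9984, 10160.5 and 9865 in GFI1-KO (log2 fold change 0.05, SE 0.032, adjusted p = 0.134). With the whole-mRNA offsets RPS6 stood at 0.29 (adjusted p = 1.99e-08), and with the coding offsets at 0.20 (adjusted p = 4.77e-06). RPSA, also a laminin receptor, gave 0.06 (adjusted p = 0.0896). RPS4X rose (0.10, adjusted p = 0.0174), with groups that overlapped. RPS27A, which is made as a fusion with ubiquitin, fell (-0.09, adjusted p = 0.0379), with groups that overlapped and a value of 0.076 under the coding offsets. Of the 14 genes listed for the small subunit head, 9 were higher and 2 lower, beside 36.5% and 35.9% of all genes tested. Under the coding offsets 4 rose and 5 fell (median 0.045), beside 37.4% and 31.7% of the genes in that fit. Outside the naming rule, RACK1, a scaffold on the small subunit, rose (0.45), as did FAU, which encodes RPS30 as a fusion (0.92).

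Paralogs were tested against their canonical partners. Of the 8, RPL10L and RPL39L had 0 counts in every library, which with a floor of 3 counts was not detectable at this depth, and RPL3L had at most 5 counts in any library; these 3 did not pass the filter. RPL22L1 (chr3:170864875-170870483), a paralog of RPL22 that can enter the ribosome in its place, showed the largest fall of the family. RPL22L1 had normalized counts of 981, 959 and 1061 in WT and 274, 255 and 279.5 in GFI1-KO (log2 fold change -1.89, SE 0.067, adjusted p = 1e-18). RPL22 itself had 2018, 1925 and 1933 and 2025, 1885 and 1862 (adjusted p = 0.582). With the whole-mRNA offsets RPL22 stood at 0.31 (adjusted p = 2.17e-07). Per kilobase of coding sequence, RPL22L1 stood at 51%, 52.2% and 57.6% of RPL22 in WT and 14.2%, 14.2% and 15.7% in GFI1-KO, with no overlap. RPL36AL rose from 518, 571 and 531 to 1492, 1601 and 1429 (log2 fold change 1.48, SE 0.057, adjusted p = 5.35e-18), opposite to RPL36A, so that its level went from 98.3%, 116% and 103% to 424%, 525% and 464% of its partner's. RPL36A overlaps the readthrough gene RPL36A-HNRNPH2 on the same strand, and how reads on such overlaps were counted is not given in the sources used here. The ratio to RPL36A therefore depends on that counting. All coding 50-base words of RPL36A and 36.4% of those of RPL36AL occur elsewhere in the genome, so their counts are uncertain. The same limit applies to RPL22 (88.1%), RPL26 (57.8%), RPL26L1 (49.7%), RPL7 (99.7%) and RPL7L1 (68.3%), while RPL22L1 had 4.73%. RPL26L1 rose (0.82) less than RPL26, and RPL7L1 fell (-0.35) while RPL7 rose (0.32). The canonical partners of the untested paralogs gave 0.36 (RPL3), 0.13 (RPL10, -0.073 with the coding offsets) and 0.75 (RPL39), all past the threshold without offsets. RPS27L gave 0.17 (adjusted p = 0.0743) beside 0.68 for RPS27. In all 5 pairs the ratios of the groups did not overlap, and the exact two-sided permutation test gave p = 0.1 for each (adjusted over the 5 pairs, 0.1), the smallest that 3 libraries against 3 allow.

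Levels among the genes spread widely, although most of the proteins are needed in equal number. In CPM per kilobase of coding sequence, the median over the 77 subunit genes was 771 to 788 in the WT libraries and 1026 to 1088 in the GFI1-KO libraries. RPL41 was highest, at 3416 ± 551 in WT and 10163 ± 257 in GFI1-KO (SD, n = 3). RPL37A (2289 ± 163 and 2005 ± 68) and RPS20 (2070.4 ± 144 and 2012 ± 35) came next. At the other end stood RPS10 (6.94 ± 1.2 and 4.25 ± 0.61) and RPL17 (21.1 ± 1.4 and 33.1 ± 2.6). RPS10 and RPL17 each lie in a readthrough gene on the same strand, and how reads on such overlaps were counted is not given in the sources used here. Dividing by the deposited gene length in place of the coding length put RPL8, RPS2 and RPL41 at the top, with RPS10 and RPL17 again lowest.

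Near-identical copies limit many of these counts. Of the 77 subunit genes, 63 had more than 10% of their coding 50-base words elsewhere in GRCh38. Of the 14 others (among them RPL8, RPL11, RPL36, RPL37A, RPLP2 and RPS19), 13 rose and 1 fell, and the median log2 fold change was 0.68; of the 63, 42 rose and 11 fell, and the median was 0.32. Under the coding offsets 9 of these 14 were higher and 5 lower, and the median was 0.47. The table held 1149 pseudogene rows of the family, of which 75 passed the filter. Of these, 27 were higher and 17 lower, where 36.5% and 35.9% of all genes tested were. The 1149 rows together took 0.16% ± 0.0085 (SD, n = 3) of all WT counts, and of the GFI1-KO counts they took 0.175% ± 0.0013 (SD, n = 3). Some moved against their parent. RPL7P1 had a log2 fold change of -1.37 where RPL7 had 0.32, and with all its pseudogene rows added RPL7 stood at 0.014. For RPL23A the same sum gave 1.92, for RPL39 it raised the value from 0.75 to 1.02, and RPS2P5, with 28.7% as many counts as RPS2, gave 0.12 beside 0.65. Pseudogenes were named after their values had been seen.

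GC content and length moved with the fold changes across the genome. Over 13879 protein-coding genes, Spearman's rho between the log2 fold change and GC content of the coding sequence was 0.57, and with coding length it was -0.15. Over the 77 subunit genes the same values were 0.22 and -0.29. For GC content of the coding sequence, rho over these 77 genes turned to -0.22 with the whole-mRNA offsets and -0.25 with the coding offsets. Over the 13879 genes it was 0.040 and 0.043 with these offsets. Genes are not independent replicates, and no p is given. The subunit genes are short, with a median coding length of 456 bases against 1422. The 9 shortest, under 300 bases, had a median log2 fold change of 0.75, beside 0.20 for the 277 other protein-coding genes of that length, and the 14 subunit genes of 700 bases or more had 0.057 beside 0.060 for 3895 others. Of the genes named here, RPL23A, RPL26, RPL36AL and RPL22L1 kept most of their difference under the coding offsets (2.19, 1.42, 1.43 and -1.63), while RPS28 went to 0.84 and RPL36 to 0.97. The part of GC content and length in the result was not tested further. By position, 5 of 6 subunit genes on chromosome 17 were higher, with a median of 1.09 beside 0.21 for the other protein-coding genes there, and 11 of 12 on chromosome 19 were higher, with a median of 0.39 beside 0.41. On chromosome 2, 3 of 4 were lower (median -0.13 beside -0.21), and on chromosome 4, 2 of 3 were lower (median -0.28 beside -0.50). On chromosomes 3, 5 and 8 the subunit genes had medians of 0.31, 0.34 and 0.80, beside -0.12, -0.21 and -0.08. Not every chromosome is given, and the part of position in the result was not tested.

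**Figure D4:**
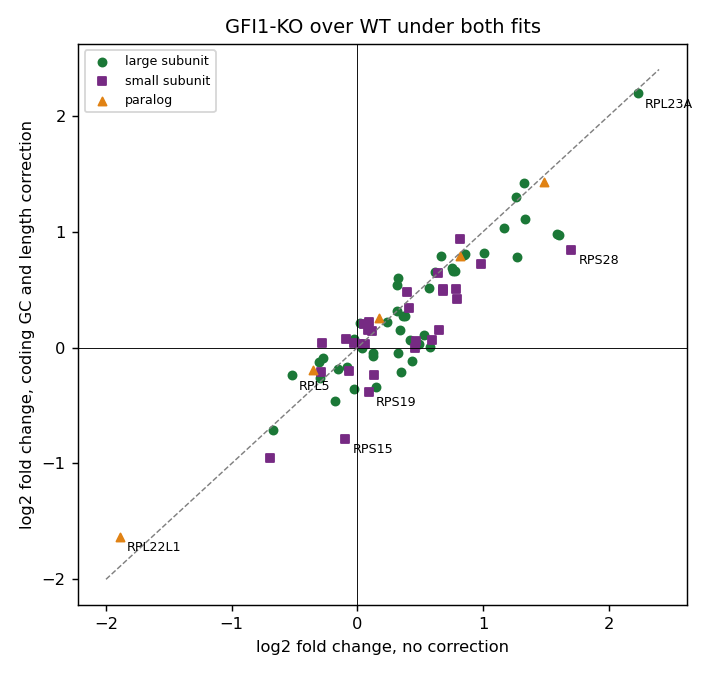
Log2 fold change (GFI1-KO over WT) of large subunit, small subunit and paralog genes (not every gene is drawn) without correction (x axis) and with offsets for GC content and length of the coding sequence (y axis); the dashed line marks equal values. RPL23A and RPL22L1 lie near the line, RPS28 lies below it, and RPS19 changes sign.

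Other genes of ribosome production and translation leaned the other way without a correction. Of 131 genes in 6 lists, 130 were tested. Of these 42 rose and 67 fell, beside 36.5% and 35.9% of all genes tested, and the median log2 fold change was -0.14. With the coding offsets 65 were higher and 29 lower, beside 37.4% and 31.7% of the genes in that fit. The median became 0.090, so the direction of these lists depends on that choice. Counts of each list below stand beside the same 36.5% and 35.9%. Initiation factors gave 12 higher and 19 lower of 35. EIF3C, a subunit of eIF3 with a near-identical copy in the genome, had the largest rise (2.91), and EIF3M, another subunit, the largest fall (-0.61). Elongation and release factors gave 3 higher and 4 lower of 9, led by EEF1D (0.99) and the release factor GSPT1 (-0.71). EEF1A1, the most abundant of them, had 76176, 74087 and 73989 and 75862, 76795 and 76044 (adjusted p = 0.373), and EEF2, the translocase, gave 0.12 but -0.22 with the coding offsets. RNA polymerase I genes gave 4 higher and 6 lower of 14, with UBTF, its upstream factor, at 1.14 and TAF1B at -0.59. Of the 15 snoRNP and rRNA modification genes, 7 were higher and 5 lower. NHP2, an H/ACA protein, went from 303, 343 and 329 to 1471, 1537 and 1407 (log2 fold change 2.18, SE 0.062, adjusted p = 8.12e-21), DIMT1 gave -0.89, and the methyltransferase FBL gave 0.45, or -0.019 with the whole-mRNA offsets. Small subunit assembly gave 9 higher and 20 lower of 33 (PWP2 0.82, WDR36 -0.74), and large subunit assembly 8 higher and 13 lower of 25 (BOP1 0.96, NIFK -1.04).

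Of 19 other TOP mRNAs tested, 6 rose and 12 fell, beside 36.5% and 35.9% of all genes tested. The median log2 fold change of the 19 was -0.15. With offsets for the whole mRNA 11 were higher and 7 lower (median 0.16), and with the coding offsets 7 were higher and 6 lower (median 0.023), so the direction of this list depends on that choice. PABPC1, the poly(A)-binding protein, fell (-0.25, and 0.023 with the coding offsets), as did the nucleolar proteins NPM1 (-0.42) and NCL (-0.10; 0.20 with the coding offsets). Of the 7 chaperones of ribosomal proteins, 2 were higher and 4 lower. Among regulators, LARP1 rose (0.30) and MYCN fell from 317, 306 and 305 to 104, 114 and 108 (log2 fold change -1.51, SE 0.10, adjusted p = 4.9e-13), while MYC had low counts, at 17.4, 13.3 and 14.7 and 16.2, 17.1 and 21.6 (adjusted p = 0.478).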

How the data were processed

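Poly(A) RNA of H1155 cells was sequenced on a NovaSeq instrument. Per the paper's methods, the authors used Hisat2 for alignment (GRCh38/hg38) and featureCounts for counting, while the submitters' processing notes name Bowtie2 and HTSeq; the strand setting and the handling of reads with several matches are not given in the sources used here. The authors deposited raw counts per gene, without normalization. The libraries held 14882914 to 17692882 counts. Genes were tested with edgeR 4.0.16 in R 4.3.3 (filterByExpr, TMM, quasi-likelihood F test, Benjamini-Hochberg over 17514 genes, adjusted p at most 0.05, no fold minimum); standard errors are the log2 fold change over the square root of F. For normalized counts, each count was scaled from the library's TMM-adjusted total to the mean of these totals. Features came from GENCODE release 44, in which 99.1% of genes matched.

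The genes and lists were chosen with earlier results of these data known. Named genes followed a rule: GFI1, the paralogs with partners, listed ribosomal proteins and translation genes, and otherwise the 5 largest changes in each direction whose groups did not overlap, the 3 highest and 3 lowest levels per length, and the largest called change in each direction of each translation list. Libraries were not paired, since deviations of same-numbered libraries correlated at 0.0230 at most. Libraries of a group differed by more than sampling noise (chi-square per degree of freedom 1.87 to 5.10 over 11867 genes). Alternatives were DESeq2 1.42.0, limma-voom 3.58.1, other scalings and filters, the replicate block, each library left out, offsets from splines for GC content and length of the mRNA or (chosen after seeing the data) the coding sequence, and pseudogene counts added. Results for some genes that these rules name are not reported here. On simulated data for this comparison (17172 genes, of which 200 were given a log2 difference of 1), 86.3% of the changed genes were found, and 7.1% of the calls were false. That simulation had no GC trend and far fewer changed genes than were called here, so its rates hold for its setting alone. With a GC trend added to the simulated GFI1-KO libraries, 9015 genes were called. Offsets for GC content and length of the mRNA brought this to 185.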

Additional observations from a re-analysis of the deposited data

How the results depend on the processing

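Counts of genes called, shares and ratios moved by more than their limits under 4 alternatives. With offsets for GC and length of the coding sequence, chosen after the data had been seen, 22 of the 83 ribosomal protein genes were lower (14 without), 13 in the large subunit (8 without) and 7 in the small (4 without), and of the translation genes 65 were higher (42 without) and 29 lower (67 without). With offsets for the whole mRNA, alone or with the replicate block, 38 translation genes were lower. With pseudogene counts added, 2 small subunit genes were lower, and the log2 ratio difference was -0.36 for RPL7L1 over RPL7 (-0.67 without) and -0.18 for RPL26L1 over RPL26 (-0.50 without). The cause was not tested.

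Signs turned for these genes. With the coding offsets the values were -0.22 for GFI1, -0.38 for RPS19, 0.076 for RPS27A, -0.22 for EEF2, 0.023 for PABPC1, 0.20 for NCL, -0.025 for MYC, -0.073 for RPL10, 0.073 for RPL22, 0.039 for RPS3A and 0.036 for RPS20. With the whole-mRNA offsets they were -0.27 for RPS19, 0.20 for RPS27A, -0.41 for EEF2, 0.060 for NCL, -0.019 for FBL, 0.31 for RPL22, 0.023 for RPL34 and 0.14 for RPL37A, and with the replicate block added they were -0.27, 0.20, -0.41, 0.060, -0.018, 0.31, 0.023 and 0.14. RPS10 stood at 0.065 with pseudogene counts added, RPL22 ranged from -0.061 to 0.00061 and RPS20 from -0.078 to 0.021 over the fits that each left out a library.

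The replicate block alone gave 58 higher and 15 lower of the 83 genes; same-numbered libraries share only a number. Leaving out each library in turn gave 54 to 58 higher and 12 to 17 lower, a share difference of 0.794 to 0.864 percentage points, and log2 ratio differences of -1.91 to -1.81 for RPL22L1 over RPL22. Calls were also lost, with the sign kept, for EIF3M (-0.044) and TAF1B (-0.11) with the whole-mRNA offsets, for NPM1 (-0.056) and TAF1B (-0.025) with the coding offsets, for RPL7 (0.014) with pseudogene counts added, for GFI1 with DESeq2 (adjusted p = 0.072), and for GFI1, RPLP0, RPS4X, RPS19, RPS27A and NCL in at least 1 fit that left out a library. Depth limits RPL10L, RPL39L and RPL3L.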
